A study of Mus musculus with 12 samples.

Results

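Integrin and laminin chain genes were followed in 6 mouse liver cancer cell lines, with and without a BRAF inhibitor. The set was defined by gene symbol alone and took every integrin alpha, integrin beta, laminin alpha, laminin beta and laminin gamma gene except Itgav, Itgb6 and Itgb8. This gave 34 genes of the 47729 listed in each table, namely 17 integrin alpha, 6 integrin beta and 11 laminin genes.

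RNA was sequenced from lines M1, M2 and M3, grown from lymph node metastases, and from lines T1, T2 and T3, grown from primary liver tumours. Every line is labelled hepatocellular carcinoma with BRAF V600E and p53 KO, and the design text describes BRAF V600E expressed in hepatocytes with Trp53 or Cdkn2a deleted. Each line gave 1 library after 48 h in 2 µM PLX4720, an inhibitor of mutant BRAF, and 1 after DMSO, its solvent, so that there were 4 groups of 3 libraries. Lines without BRAF V600E and normal liver cells were not analysed here. The replicates are cell lines. The labels do not say that each came from its own animal, and the tables of T3, M2 and M3 carry a common number in their names, so that these 3 lines may not be independent. The p-values measure the spread between lines only. For PLX4720 against DMSO, this is the spread of the change from line to line within a site.

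Integrins are surface receptors made of an alpha and a beta chain. They bind matrix proteins outside the cell and couple them to actin through adaptors such as talin and kindlin, and the alpha chain largely sets the ligand. Laminins are cross-shaped trimers of an alpha, a beta and a gamma chain and form the sheet of the basement membrane under epithelia and around vessels. Normal liver sinusoids have little laminin, whereas bile ducts and liver tumours are known for laminin and for laminin-binding integrins.

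Libraries held 31992512 to 39288748 counted fragments, of which the 34 genes took 0.242% to 0.596%. Mitochondrial genes took 0.189% to 0.712% of fragments, except for 3.67% in the PLX4720 library of T3. Trp53 transcripts were counted in all libraries, at 2.79 to 4.19 CPM in metastasis lines with PLX4720, 3.27 to 4.86 with DMSO, 4.08 to 8.54 in primary lines with PLX4720 and 4.66 to 6.87 with DMSO. A gene-level count of this kind does not show whether an exon is missing. The labelled cell type was checked against marker genes. Summed over 6 hepatocyte markers, metastasis lines had at most 0.209 CPM in any library, against 132 to 293 CPM in primary lines with PLX4720 and 151 to 260 with DMSO. In primary lines this sum was mostly Hnf4a, a liver transcription factor also made in other epithelia, at 121 to 266 CPM with PLX4720 and 141 to 250.4 with DMSO. The albumin gene Alb was at 0 in every metastasis library and at 0.136 to 15.8 and 0.132 to 7.68 CPM in primary lines, and Tat was under 1 CPM in every library. Biliary and epithelial markers summed to 6.42 to 14.3 CPM in metastasis lines with PLX4720 and 0.744 to 17.3 with DMSO, against 5657 to 8151 and 5459 to 7713 CPM in primary lines. The sum of 7 fibroblast and stellate markers ran the other way, at 362 to 2027 CPM in metastasis lines with PLX4720 and 131 to 1211 with DMSO, against 0.681 to 31.5 and 0.579 to 14.8 CPM in primary lines. That sum was carried by Pdgfra and Pdgfrb, and in M1 also by Dcn. Des and Lrat were under 1 CPM in every library, and Reln was highest in T1, at 4.18 CPM with PLX4720 and 4.37 with DMSO. Summed over 5 endothelial markers, metastasis lines had 0.455 to 1.94 CPM with PLX4720 and 0.435 to 0.835 with DMSO. Primary lines had 0.544 to 38.5 and 0.263 to 75.0 CPM. The highest sums were mostly Tek in T1, at 35.1 CPM with PLX4720 and 69.5 with DMSO, while Pecam1 was under 1 CPM in every library. The metastasis lines thus had next to none of the hepatocyte markers, of which the primary lines had mainly Hnf4a, and what part this had in the site differences below was not tested.

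Levels are given as CPM, the count of a gene scaled to a common library total with TMM factors. Of the 34 genes, 27 averaged at least 1 CPM in at least 1 group, and these same 27 passed the filter on low counts and were tested for PLX4720. The other 7, Itga9, Itgad, Itgal, Itgam, Itgax, Lama1 and Lamc3, averaged under 1 CPM in every group, and Itgad had no fragment in any library. In the comparison of sites 25 genes were tested, as Itga4 and Lama2 did not pass its filter. Levels of different genes are compared as TPM, which divides by exon length. On that scale Itgb1, the beta chain shared by most matrix-binding integrins, was highest of the 34 in each of the 12 libraries, between 293 and 1098 TPM. Itgb5 stood among the 5 highest in all 12 libraries too, as did Lamb1 in all 6 metastasis libraries, Lamc1 in 5 of them and Itga3 in all 6 primary libraries.

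**Figure D1:**
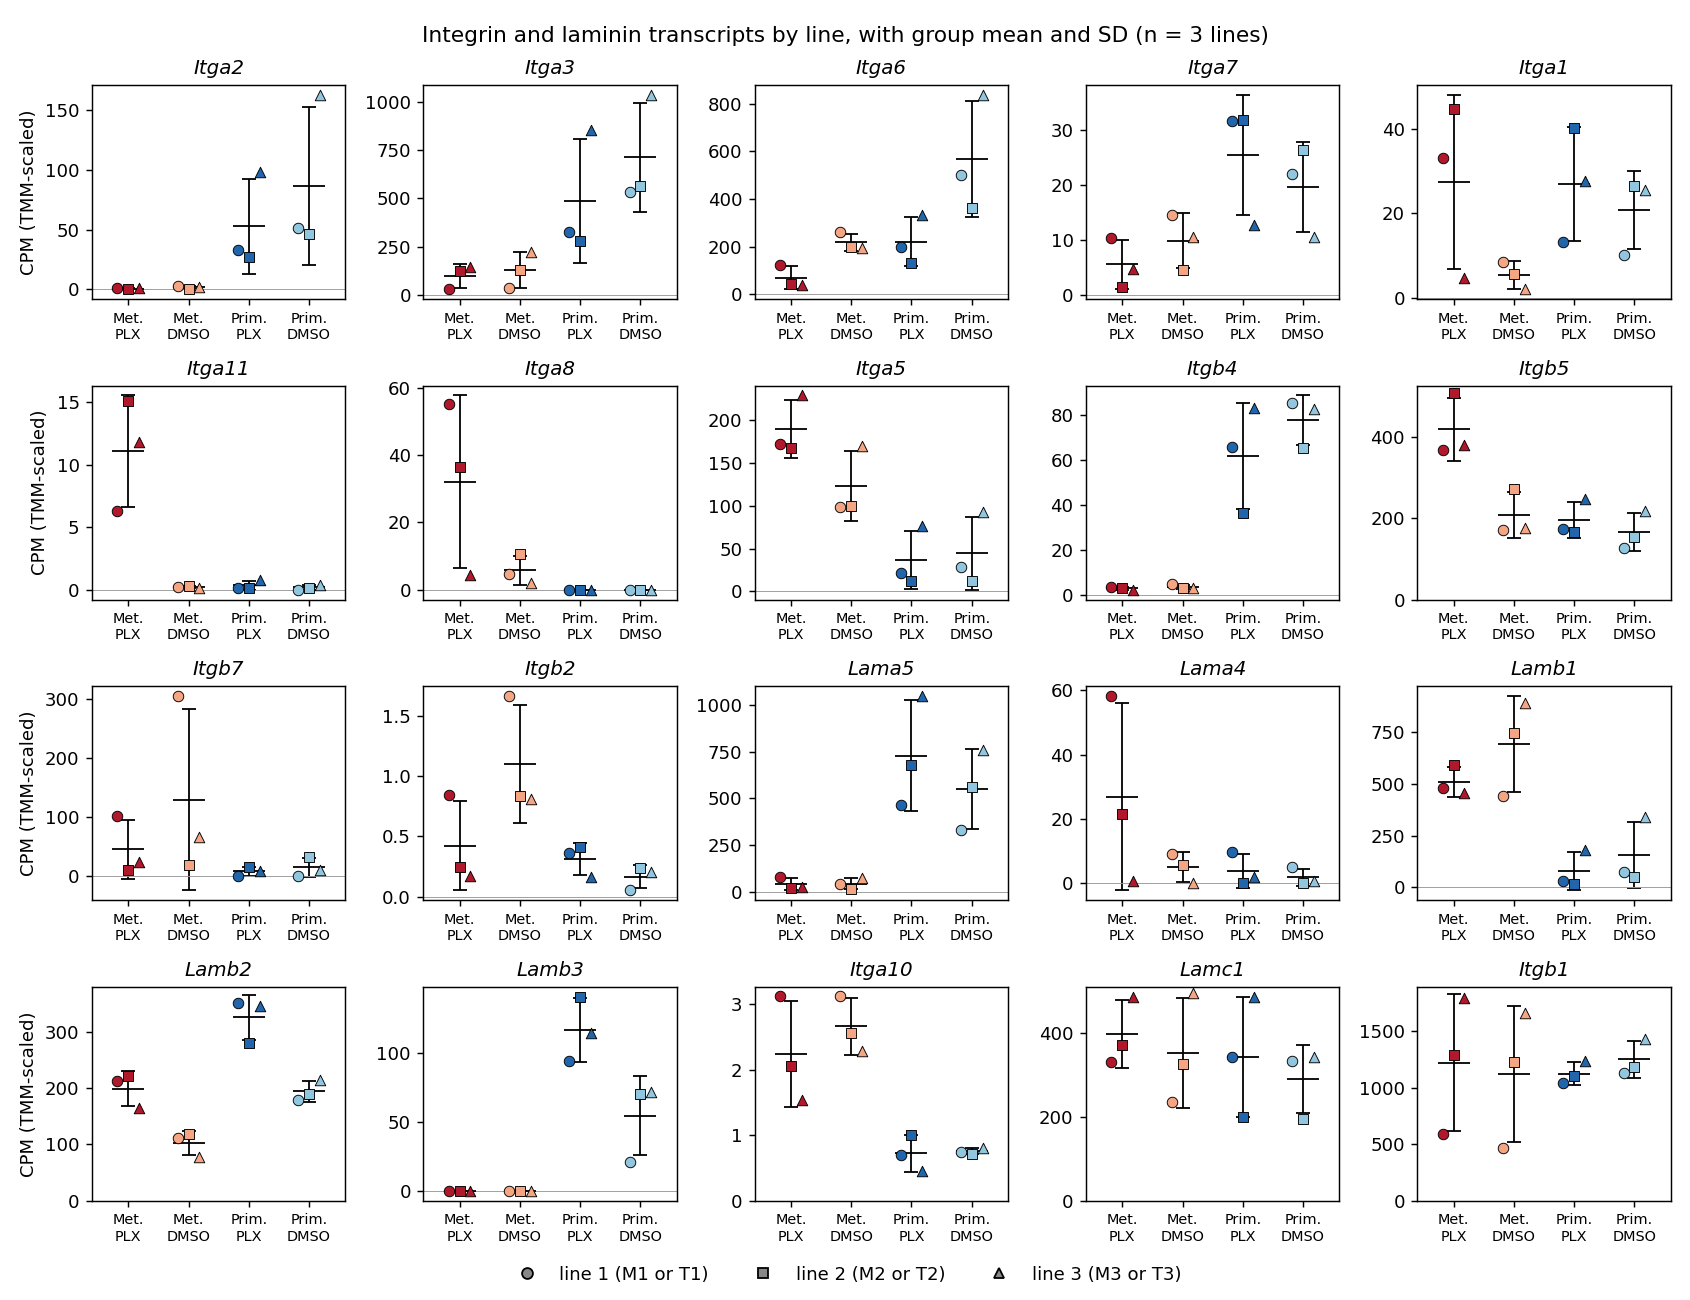
Level of 20 integrin and laminin genes in CPM (TMM-scaled, linear axes that differ between panels) in metastasis and primary lines with PLX4720 and DMSO. Points are single lines, long bars the mean and whiskers the SD of 3 lines. Itga11 sat between 6.27 and 15.1 CPM in the metastasis lines with PLX4720 and under 1 CPM in all other libraries.

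With PLX4720 against DMSO over all 6 lines, 7 of the 27 genes rose and 6 fell at an edgeR adjusted p under 0.05. Of all 16555 genes tested, 27.2% passed in this comparison, 14.5% higher and 12.7% lower. The median log2 change of the 27 was 0.17, beside 0.03 over all genes. In metastasis lines alone, 8 rose and 6 fell, where 20.4% of all genes passed (12% higher, 8.36% lower), and the medians were -0.07 and 0.02. In primary lines 4 rose and 4 fell, where 8.23% of all genes passed (4.46% higher, 3.77% lower), and the medians were 0.27 and 0.03. The primary count fell when a primary line was left out, as did that of all genes, of which 1362 passed with every line in. Without T1, 0 genes of the set passed, with 8 at an unadjusted edgeR p under 0.05, and 91 of 17125 genes tested. Without T2, 1 of the set and 210 of 17235 genes passed, and without T3, 5 of the set and 340 of 17038. The change had the same sign in each of the 6 lines for 11 of the 27 genes, and for 25.5% of all genes. For Itga11 and Lama4 the sign in T2 came from library scaling alone, as T2 held 6 and 1 fragments with each treatment. All 3 metastasis lines had the same sign for 18 genes (50% of all genes) and all 3 primary lines for 21 (51.8% of all genes). Over all comparisons 21 genes passed at least once, and the 6 that were tested and never passed were Itga2b, Itgae, Itgb1, Itgb3, Lama3 and Lamc1.

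**Figure D2:**
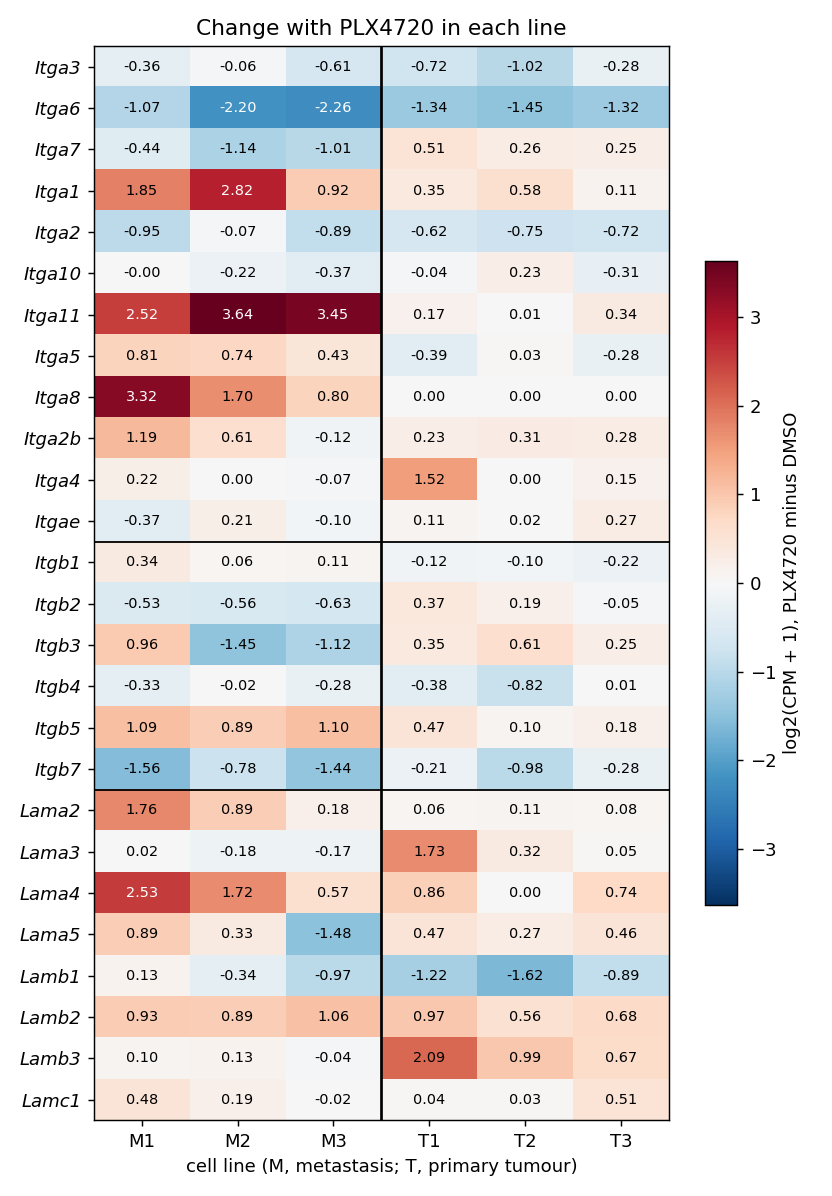
Difference of log2(CPM + 1), PLX4720 minus DMSO, for 26 of the tested genes (rows) in each of the 6 lines (columns), red for higher and blue for lower with PLX4720. Itga6 was lower and Lamb2 higher in all 6 lines, and the largest values were those of Itga11 in M2 and M3, 3.64 and 3.45.

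The change with PLX4720 differed between metastasis and primary lines for 5 of the 27 genes, all integrin chains, where 2.94% of all genes did. Itga1, Itga5, Itga11 and Itgb5 had a more positive change in metastasis lines and Itga7 a more negative one (1.85% and 1.09% of all genes). Each of these 5 calls was lost without at least 1 line, and the count was 0 without T3, 1 when T1 or M2 was left out, 2 when T2 was, 3 when M3 was and 8 when M1 was. Of all genes, 487 passed with every line in. Without T3, T1, M2, T2, M3 and M1 that count was 243, 160, 257, 122, 295 and 798. The changes of the 3 metastasis lines lay wholly to one side of those of the 3 primary lines for 11 of the 27 genes and for 23.3% of all genes. Between sites, 8 of 25 genes differed with PLX4720, 3 higher and 5 lower in metastasis lines, where 13.5% of 15276 genes did (5.62% higher, 7.88% lower). With DMSO 10 of 25 differed, 3 higher and 7 lower, where 12.1% of 14992 genes did (4.64% higher, 7.49% lower). The DMSO count was 3 without M1, 5 when T1, M2 or M3 was left out, 6 when T2 was and 7 when T3 was. Of all genes, 1819 passed with every line in. Without M1, T1, M2, M3, T2 and T3 that count was 1398, 1337, 901, 1155, 1174 and 1595. Among those that passed with both treatments were Itga2, Itga8, Itgb4, Lama5 and Lamb3. The groups did not overlap for 16 of 25 genes with PLX4720 and 15 of 25 with DMSO, while 34.7% and 33.2% of all genes were separated in this way. In bulk RNA, fewer cells that express a gene and less of its RNA per cell cannot be told apart, which holds for all values here.

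**Figure D3:**
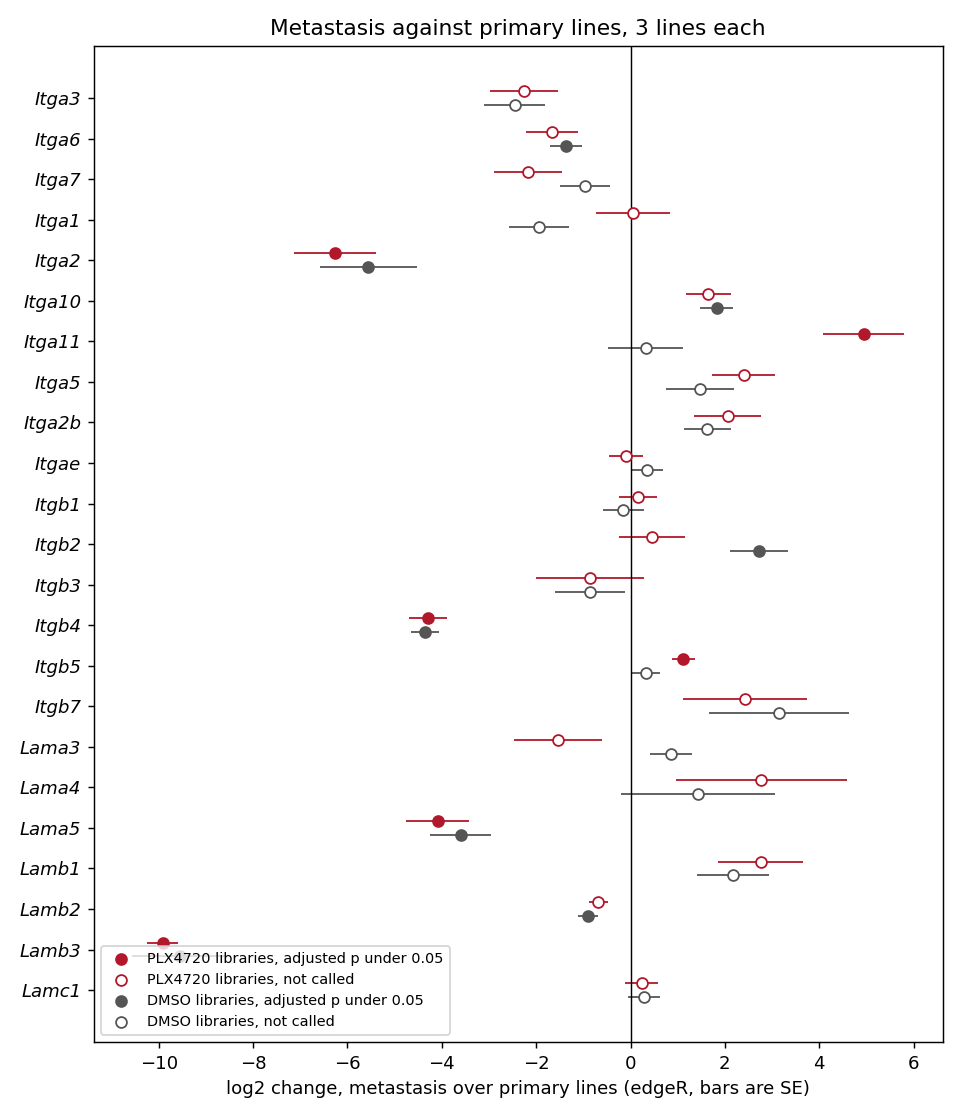
Log2 change of metastasis over primary lines for 23 genes, with PLX4720 (red, upper of each pair) and with DMSO (grey). Circles are edgeR estimates, filled where the adjusted p was under 0.05, and bars are SE. Itga2, Itgb4, Lama5 and Lamb3 lie left of 0 with filled circles for both treatments. Itga8, which was near 0 fragments in primary lines, and the untested Itga4 and Lama2 are not drawn.

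Among alpha chains of laminin receptors, Itga6 fell with PLX4720 in all lines. Itga6 pairs with Itgb1 or Itgb4 and is the main laminin receptor chain of many epithelia. In M1, M2 and M3 it stood at 124, 42.2 and 40.1 CPM with PLX4720, against 260.2, 197 and 196 CPM with DMSO. Primary lines T1, T2 and T3 had 197, 132 and 334 CPM with PLX4720, against 502, 362 and 838 CPM with DMSO. Every line was lower with PLX4720, and at each site the PLX4720 and DMSO groups did not overlap. Its log2 change was -1.62 ± 0.15 (SE, adjusted p = 0.000242 by edgeR) over 6 lines, -1.86 ± 0.21 (SE, adjusted p = 0.000579 by edgeR) in metastasis lines and -1.38 ± 0.21 (SE, adjusted p = 0.00951 by edgeR) in primary lines. The call in primary lines was lost without T1 or T2 (adjusted p 0.000175 to 0.0695 over the lines left out). Between sites with DMSO, Itga6 was lower in metastasis lines, with a log2 difference of -1.37 ± 0.34 (SE, adjusted p = 0.0475 by edgeR), a call that held only without T2 (0.0373 to 0.157).

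Itga3, a laminin receptor chain that pairs with Itgb1, also fell over 6 lines. Its levels were 29.0, 124 and 145 CPM in M1, M2 and M3 with PLX4720, against 37.6, 129 and 222 CPM with DMSO. T1, T2 and T3 had 324, 279 and 857 CPM with PLX4720, against 534, 567 and 1039 CPM with DMSO. All 6 lines were lower with PLX4720, though by little in M2, and every metastasis library lay under every primary one. The log2 change was -0.51 ± 0.11 (SE, adjusted p = 0.00888 by edgeR) over 6 lines and -0.67 ± 0.15 (SE, adjusted p = 0.0314 by edgeR) in primary lines, where it was lost without T1 or T2 (0.0198 to 0.209). In metastasis lines it was -0.35 ± 0.15 (SE, adjusted p = 0.137 by edgeR), which did not pass. The site difference did not pass either, at -2.26 ± 0.71 (SE, adjusted p = 0.0920 by edgeR) with PLX4720 and -2.46 ± 0.64 (SE, adjusted p = 0.0563 by edgeR) with DMSO.

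Itga7, a laminin receptor chain best known from muscle, moved apart by site. Metastasis lines M1, M2 and M3 had 10.5, 1.55 and 4.77 CPM with PLX4720, against 14.5, 4.61 and 10.7 CPM with DMSO, lower in each line. Primary lines T1, T2 and T3 had 31.7, 31.9 and 12.8 CPM with PLX4720, against 22.0, 26.4 and 10.6 CPM with DMSO, higher in each line. Itga7 fell in metastasis lines (log2 change -1.01 ± 0.19 SE, edgeR adjusted p = 0.00744), while the primary change of 0.36 ± 0.18 (SE, adjusted p = 0.243 by edgeR) did not pass. The difference between sites was -1.37 ± 0.26 (SE, adjusted p = 0.0303 by edgeR), and this call held only without M1 (0.00297 to 0.103).

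The 4 alpha chains of collagen receptors, which all pair with Itgb1, split in direction. Itga11, a receptor chain for fibrillar collagen known from fibroblasts, showed the largest fitted rise of the 27 genes over 6 lines and in metastasis lines. It had 6.27, 15.1 and 11.8 CPM in M1, M2 and M3 with PLX4720, against 0.268, 0.297 and 0.174 CPM with DMSO, or 1135 against 25 fragments over the 3 lines. In T1, T2 and T3 it had 0.157, 0.163 and 0.775 CPM with PLX4720, against 0.0278, 0.158 and 0.403 CPM with DMSO. The PLX4720 libraries of the metastasis lines exceeded 6 CPM, and the other 9 libraries were under 1 CPM. In metastasis lines this was a log2 change of 5.42 ± 0.33 SE, or 42.9-fold (edgeR adjusted p = 3.36e-05), and in primary lines one of 0.88 ± 0.45 (SE, adjusted p = 0.253 by edgeR), which did not pass. The difference between sites was 4.54 ± 0.61 (SE, adjusted p = 0.00909 by edgeR) and was lost without T3 (0.0781). With PLX4720, metastasis lines exceeded primary lines by 4.94 ± 0.85 (SE, adjusted p = 0.0140 by edgeR) on the log2 scale. With DMSO the difference of 0.32 ± 0.79 (SE, adjusted p = 0.851 by edgeR) did not pass.

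Itga2, a collagen receptor chain of epithelia and platelets, went the other way. Its levels in M1, M2 and M3 were 0.985, 0.182 and 0.843 CPM with PLX4720, against 2.83, 0.238 and 2.41 CPM with DMSO. Those in T1, T2 and T3 were 32.8, 26.9 and 98.1 CPM with PLX4720, against 51.0, 46.0 and 163 CPM with DMSO. All 6 lines were lower with PLX4720, and every metastasis library lay far under every primary one. The fitted log2 changes of Itga2 were -1.06 ± 0.11 (SE, adjusted p = 0.000375 by edgeR) over 6 lines, -1.41 ± 0.18 (SE, adjusted p = 0.00110 by edgeR) in metastasis lines and -0.71 ± 0.11 (SE, adjusted p = 0.0104 by edgeR) in primary lines. The primary call was lost without any 1 of T1, T2 or T3 (0.00365 to 0.0826). Metastasis lines were lower than primary lines, with log2 differences of -6.26 ± 0.88 (SE, adjusted p = 0.00754 by edgeR) with PLX4720 and -5.56 ± 1.03 (SE, adjusted p = 0.0190 by edgeR) with DMSO, the second lost without M1 or M3 (0.0299 to 0.0648).

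Itga1, a collagen receptor chain of stromal and smooth muscle cells, lies close to Itga2 in the genome. On GRCm38 it spans chr13:114958079-115101964 and Itga2 chr13:114835916-114932041, both on the minus strand. Its levels were 33.0, 44.7 and 4.62 CPM in M1, M2 and M3 with PLX4720, against 8.47, 5.47 and 1.97 CPM with DMSO. The primary lines T1, T2 and T3 had 13.0, 40.1 and 27.7 CPM with PLX4720, against 9.99, 26.5 and 25.5 CPM with DMSO. All 6 lines were higher with PLX4720, M1 and M2 by the most. Itga1 rose on the log2 scale by 1.26 ± 0.19 (SE, adjusted p = 0.00239 by edgeR) over 6 lines and 2.15 ± 0.28 (SE, adjusted p = 0.00120 by edgeR) in metastasis lines, and the primary change of 0.37 ± 0.25 (SE, adjusted p = 0.402 by edgeR) did not pass. The difference between sites, 1.78 ± 0.38 (SE, adjusted p = 0.0441 by edgeR), was lost without T1, T2, T3 or M2 (0.0267 to 0.135). With DMSO, metastasis lines lay under all primary lines, at -1.94 ± 0.64 (SE, adjusted p = 0.110 by edgeR), and with PLX4720 the sites overlapped, at 0.05 ± 0.79 (SE, adjusted p = 0.977 by edgeR). Neither difference passed.

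Itga10, a collagen receptor chain known from cartilage, was low everywhere, at 3.12, 2.06 and 1.54 CPM in metastasis lines with PLX4720 and 3.13, 2.56 and 2.29 with DMSO, against 0.705, 1.01 and 0.454 and 0.751, 0.710 and 0.806 CPM in primary lines. Metastasis lines were above primary lines with both treatments. On the log2 scale the difference was 1.83 ± 0.36 (SE, adjusted p = 0.0219 by edgeR) with DMSO, a call lost without any 1 of the 6 lines (0.0568 to 0.0824), and 1.65 ± 0.48 (SE, adjusted p = 0.0717 by edgeR) with PLX4720, which did not pass. Of its exon length 33.5% is shared with Gm42957 on the same strand, a gene with 27 fragments in all against 672 for Itga10.

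Promoters of Itga11 and Itga2 are shown because these receptor chains for the same kind of ligand moved in opposite directions with PLX4720. Each stretch is 300 bases from RefSeq on GRCm38.p6, from 250 before to 50 after the annotated start, read 5′ to 3′ on the gene's strand. That of Itga11 is chr9:62677605-62677904 on the plus strand and that of Itga2 is chr13:114932051-114932350 on the minus strand.
Itga11: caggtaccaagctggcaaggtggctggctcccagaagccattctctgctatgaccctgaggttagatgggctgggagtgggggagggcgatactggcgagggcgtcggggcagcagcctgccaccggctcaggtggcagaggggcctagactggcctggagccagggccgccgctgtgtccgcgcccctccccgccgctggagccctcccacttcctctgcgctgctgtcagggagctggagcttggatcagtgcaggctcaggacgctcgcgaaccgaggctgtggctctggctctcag
Itga2: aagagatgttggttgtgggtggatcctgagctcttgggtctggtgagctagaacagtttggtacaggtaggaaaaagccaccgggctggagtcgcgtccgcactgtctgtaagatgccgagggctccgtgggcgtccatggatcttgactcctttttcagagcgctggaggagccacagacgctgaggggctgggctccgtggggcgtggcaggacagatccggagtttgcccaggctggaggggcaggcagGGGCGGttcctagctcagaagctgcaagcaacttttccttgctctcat
Capitals mark GC boxes, GGGCGG or CCGCCC on the other strand, which 35.7% of the 32851 promoters of that table hold. Itga2 had 1 and Itga11 had none. Neither held TGANTCA, the AP-1 motif that 7.81% of promoters hold, CCGGAAG, an ETS motif in 8.86%, or GGAATG, a TEAD motif in 14.7%, on either strand. A match or its lack describes these letters only.

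Of the alpha chains that bind the RGD tripeptide of fibronectin and related proteins, Itga5 and Itga8 rose in metastasis lines. Itga5, the classical fibronectin receptor chain, had 172, 168 and 229 CPM in M1, M2 and M3 with PLX4720, against 98.0, 99.96 and 169.6 CPM with DMSO. In T1, T2 and T3 it had 21.5, 12.4 and 75.9 CPM with PLX4720, against 28.4, 12.1 and 92.4 CPM with DMSO. Each metastasis line was higher with PLX4720, T1 and T3 were lower and T2 barely moved, and all metastasis libraries lay above all primary ones. Itga5 rose by 0.66 ± 0.11 (SE, adjusted p = 0.00344 by edgeR) on the log2 scale in metastasis lines, and its value of -0.22 ± 0.11 (SE, adjusted p = 0.244 by edgeR) in primary lines did not pass. The difference between sites was 0.89 ± 0.16 (SE, adjusted p = 0.0229 by edgeR) and was lost without T1, T3 or M2 (0.0245 to 0.0985). In metastasis lines with PLX4720, Itga5 made up 46.7% to 59.3% of the summed TPM of all integrin alpha chains in the set, against 3.21% to 7.33% in primary lines.

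Itga8, a receptor chain for nephronectin known from kidney and stellate cells, was counted mainly in metastasis lines. M1, M2 and M3 had 55.2, 36.6 and 4.39 CPM with PLX4720, against 4.62, 10.6 and 2.09 CPM with DMSO, higher in each line. This was a log2 change of 2.20 ± 0.45 (SE, adjusted p = 0.0159 by edgeR), which was lost without M2 (0.00596 to 0.0569). Primary lines had 1 fragment in all with each treatment, both in T3, against 3374 fragments in metastasis lines with PLX4720 and 582 with DMSO. The ratio of metastasis to primary lines was 3420 with PLX4720 (95% interval from counting alone, 613 to 135117) and 634 with DMSO (113 to 25086). edgeR called Itga8 higher in metastasis lines with both treatments, at adjusted p = 0.00624 and 0.00684. With so few primary fragments its change in primary lines, and the difference between sites, cannot be read. Itga2b, the platelet fibrinogen receptor chain, stood at 2.06 to 11.3 CPM in metastasis lines with PLX4720 and 2.32 to 4.41 with DMSO, against 0.862 to 1.96 and 0.584 to 1.39 CPM in primary lines. It passed in no comparison. Of 5 platelet markers, Gp6, Gp9 and Pf4 were under 1 CPM in every library and Gp1ba exceeded 1 CPM only in T3. Ppbp was highest in T2, at 19.8 CPM with PLX4720, against 9.73 with DMSO, and rose over 6 lines by 1.68 ± 0.26 (SE, adjusted p = 0.00274 by edgeR) on the log2 scale.

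Itga4 and Itga9 encode related chains that bind VCAM1, fibronectin variants and other ligands. Itga4 was confined to 1 line at more than 1 CPM: T1 had 43.9 CPM with PLX4720, against 14.6 CPM with DMSO. T2 had no fragment with either treatment and T3 had 0.107 CPM with PLX4720, against 0 with DMSO. The metastasis lines stayed at 0.0872 to 0.438 CPM with PLX4720 and 0.0892 to 0.239 with DMSO. The fitted log2 changes of 1.66 ± 0.36 (SE, adjusted p = 0.0323 by edgeR) in primary lines and 0.99 ± 0.31 (SE, adjusted p = 0.0477 by edgeR) over 6 lines therefore describe T1, and without T1 the gene did not pass the filter. Both calls were also lost without T2 or T3, and the second without M1 or M2 (0.0111 to 0.0709 and 0.0398 to 0.320). Itga9 had 40 fragments in metastasis lines with PLX4720 and 17 with DMSO, at most 0.602 CPM in a library, and none in primary lines.

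Of the 5 alpha chains of leukocyte integrins, Itgad, Itgal, Itgam and Itgax had between 0 and 2 fragments per group of 3 libraries. Itgae, known from T cells within epithelia, was at 0.766 to 1.09 CPM in metastasis lines with PLX4720 and 0.803 to 1.28 with DMSO, against 0.914 to 1.20 and 0.779 to 0.894 CPM in primary lines, and passed in no comparison. Of 12 leukocyte markers, 10 were under 1 CPM in every library, Ptprc included. The exceptions were Csf1r and Lcp1. Csf1r was highest in T2, at 8.71 CPM with PLX4720 and 3.10 with DMSO, and at most 1.03 CPM in metastasis libraries. Lcp1 was highest in T1, at 5.98 CPM with PLX4720 and 7.57 with DMSO. On the log2 scale over 6 lines, Csf1r rose by 1.08 ± 0.20 (SE, adjusted p = 0.00532 by edgeR). Ptprc had a change of -1.91 ± 0.45 (SE, adjusted p = 0.0172 by edgeR). The sum of the 12 was 1.80 to 1.86 CPM in metastasis lines with PLX4720 and 0.984 to 1.39 with DMSO, against 6.55 to 9.96 and 3.25 to 9.27 CPM in primary lines.

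Among beta chains, Itgb5 rose and Itgb7 fell with PLX4720, while Itgb1 passed in no comparison. Itgb1 averaged 1221 ± 601 CPM in metastasis lines with PLX4720 and 1118 ± 602 with DMSO (SD, n = 3 lines). In primary lines it averaged 1124 ± 98.5 CPM with PLX4720 and 1248 ± 163 with DMSO. Its log2 change over 6 lines was 0.01 ± 0.06 (SE, adjusted p = 0.923 by edgeR). This is the mean of -0.15 ± 0.09 (SE, adjusted p = 0.344 by edgeR) in primary lines, each lower, and 0.17 ± 0.09 (SE, adjusted p = 0.223 by edgeR) in metastasis lines, each higher. The contrast of these changes, 0.32 ± 0.13 (SE, adjusted p = 0.286 by edgeR), did not pass. Its differences between sites, 0.15 ± 0.40 (SE, adjusted p = 0.851 by edgeR) with PLX4720 and -0.15 ± 0.43 (SE, adjusted p = 0.871 by edgeR) with DMSO, were within the spread between lines.

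Itgb5, the partner of Itgav in a vitronectin receptor, had 369, 508 and 381 CPM in M1, M2 and M3 with PLX4720, against 173, 274 and 178 CPM with DMSO. Primary lines had 175, 167 and 248 CPM with PLX4720, against 126, 155 and 219 CPM with DMSO. It was higher with PLX4720 in all 6 lines, and the PLX4720 libraries of metastasis lines lay above all others. On the log2 scale Itgb5 rose by 0.64 ± 0.07 (SE, adjusted p = 0.000459 by edgeR) over 6 lines and 1.03 ± 0.10 (SE, adjusted p = 0.000238 by edgeR) in metastasis lines, and the primary change of 0.25 ± 0.10 (SE, adjusted p = 0.142 by edgeR) did not pass. The difference between sites was 0.78 ± 0.14 (SE, adjusted p = 0.0226 by edgeR), a call that held only without M1 (0.0262 to 0.145). With PLX4720 metastasis lines were higher by 1.12 ± 0.25 (SE, adjusted p = 0.0304 by edgeR), a call that held only without T3 (0.0300 to 0.103), and with DMSO by 0.33 ± 0.29 (SE, adjusted p = 0.543 by edgeR), which did not pass.

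Itgb7, the partner of Itga4 and Itgae in lymphocyte homing receptors, fell over 6 lines. M1, M2 and M3 had 102, 10.2 and 23.6 CPM with PLX4720, against 304, 18.3 and 65.9 CPM with DMSO, and T1, T2 and T3 had 0.366, 16.4 and 8.76 CPM with PLX4720, against 0.584, 33.3 and 10.9 CPM with DMSO. All 6 lines were lower with PLX4720, and M1 with DMSO stood far above every other library. Itgb7 had a log2 change of -0.999 ± 0.13 (SE, adjusted p = 0.00110 by edgeR) over 6 lines and -1.32 ± 0.17 (SE, adjusted p = 0.000975 by edgeR) in metastasis lines, and that in primary lines, -0.68 ± 0.20 (SE, adjusted p = 0.0671 by edgeR), did not pass. The sites overlapped, with log2 differences that did not pass, 2.42 ± 1.32 (SE, adjusted p = 0.296 by edgeR) with PLX4720 and 3.14 ± 1.49 (SE, adjusted p = 0.246 by edgeR) with DMSO. On the TPM scale M1 with DMSO held 284 TPM of Itgb7 beside 293 TPM of Itgb1, with its partner chains Itga4 at 0.0436 TPM and Itgae at 0.715 TPM.

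Itgb4, the beta chain of hemidesmosomes and partner of Itga6, separated the sites. M1, M2 and M3 had 3.67, 3.15 and 2.41 CPM with PLX4720, against 65.6, 36.4 and 83.2 CPM in T1, T2 and T3. With DMSO the values were 4.86, 3.21 and 3.13 CPM in metastasis lines, against 85.5, 65.2 and 82.5 CPM in primary lines. Every metastasis library was far under every primary one, with log2 differences of -4.30 ± 0.40 (SE, adjusted p = 0.00220 by edgeR) with PLX4720 and -4.36 ± 0.29 (SE, adjusted p = 0.000989 by edgeR) with DMSO, and the calls held whichever line was left out. The change with PLX4720 over 6 lines, -0.34 ± 0.12 (SE, adjusted p = 0.0680 by edgeR), did not pass.

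Itgb2, the common beta chain of leukocyte integrins, was near the limit of detection, at 0.848, 0.242 and 0.174 CPM in metastasis lines with PLX4720 and 1.67, 0.833 and 0.813 with DMSO, against 0.366, 0.408 and 0.160 and 0.0557, 0.237 and 0.201 CPM in primary lines. It was lower with PLX4720 in each metastasis line, at a log2 change of -1.50 ± 0.41 (SE, adjusted p = 0.0327 by edgeR), a call lost without M2 or M3 (0.0211 to 0.118). With DMSO metastasis lines were higher by 2.73 ± 0.62 (SE, adjusted p = 0.0354 by edgeR), a call lost without any 1 of the 6 lines (0.0738 to 0.0890). Itgb3, a chain of the vitronectin and platelet fibrinogen receptors, varied widely within groups, from 3.18 to 119.9 CPM in metastasis lines with PLX4720 and 10.4 to 61.1 with DMSO, against 37.3 to 129 and 24.1 to 108 CPM in primary lines. It was higher with PLX4720 in M1 and lower in M2 and M3, and passed in no comparison.

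Among laminin alpha chains, Lama5 separated the sites and Lama4 rose with PLX4720. Lama5, the alpha chain of most adult basement membranes, had 81.7, 18.8 and 27.0 CPM in M1, M2 and M3 with PLX4720, against 463, 676 and 1048 CPM in T1, T2 and T3. With DMSO it had 43.5, 14.7 and 77.3 CPM in metastasis lines, against 334, 560.4 and 760.4 CPM in primary lines. All metastasis libraries were under all primary ones, with log2 differences of -4.09 ± 0.66 (SE, adjusted p = 0.0114 by edgeR) with PLX4720 and -3.60 ± 0.65 (SE, adjusted p = 0.0175 by edgeR) with DMSO, the second lost without M1 (0.0635). With PLX4720 against DMSO, 5 lines were higher and M3 was lower, and the change over 6 lines, 0.17 ± 0.26 (SE, adjusted p = 0.676 by edgeR), did not pass.

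Lama4, the alpha chain of vessel and mesenchymal basement membranes, was higher with PLX4720 at both sites. It had 58.3, 21.6 and 0.872 CPM in M1, M2 and M3 with PLX4720, against 9.24, 5.86 and 0.261 CPM with DMSO. T1, T2 and T3 had 9.92, 0.0272 and 1.92 CPM with PLX4720, against 5.01, 0.0263 and 0.755 CPM with DMSO. Lines differed widely, M1 and M2 being highest and T2 at 1 fragment with each treatment. T1, the highest primary line, was also the line with the most Tek. Fitted log2 changes were 1.66 ± 0.16 (SE, adjusted p = 0.000314 by edgeR) over 6 lines, 2.21 ± 0.21 (SE, adjusted p = 0.000238 by edgeR) in metastasis lines and 1.10 ± 0.24 (SE, adjusted p = 0.0310 by edgeR) in primary lines, the last lost without any 1 of T1, T2 or T3 (0.0116 to 0.209). The sites overlapped and their difference did not pass, at 2.77 ± 1.82 (SE, adjusted p = 0.387 by edgeR) with PLX4720 and 1.43 ± 1.64 (SE, adjusted p = 0.653 by edgeR) with DMSO. Lama2, the alpha chain of muscle and nerve laminin, was low but rose in metastasis lines, at 3.89, 0.970 and 0.233 CPM with PLX4720, against 0.447, 0.0595 and 0.0871 CPM with DMSO. Its log2 change was 3.02 ± 0.45 (SE, adjusted p = 0.00228 by edgeR) there and 2.01 ± 0.43 (SE, adjusted p = 0.00988 by edgeR) over 6 lines, with 0.0817 to 0.160 CPM in primary lines with PLX4720 and 0 to 0.101 with DMSO. M1 held 142 of its 182 fragments in metastasis lines with PLX4720, and without M1 Lama2 was not tested. The primary change of 1.01 ± 0.71 (SE, adjusted p = 0.410 by edgeR) did not pass.

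Lama3, the alpha chain of the anchoring laminin of skin and other epithelia, was at 0.303 to 0.684 CPM in metastasis lines with PLX4720 and 0.476 to 0.784 with DMSO, against 0.240 to 3.52 and 0.201 to 0.500 CPM in primary lines. The highest value was in T1 with PLX4720, and the gene passed in no comparison. Lama1, an early embryonic alpha chain, stayed at or under 0.364 CPM in every library. As shares of laminin alpha TPM, Lama5 took 97.2% to 99.9% in primary libraries and 46.2% to 98.3% in metastasis libraries. Lama4 took 39.3% in M1 with PLX4720, against 16.4% with DMSO, and 50.2% in M2 with PLX4720, against 26.4% with DMSO. In M3 its share was 2.88% with PLX4720, against 0.314% with DMSO.

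**Figure D4:**
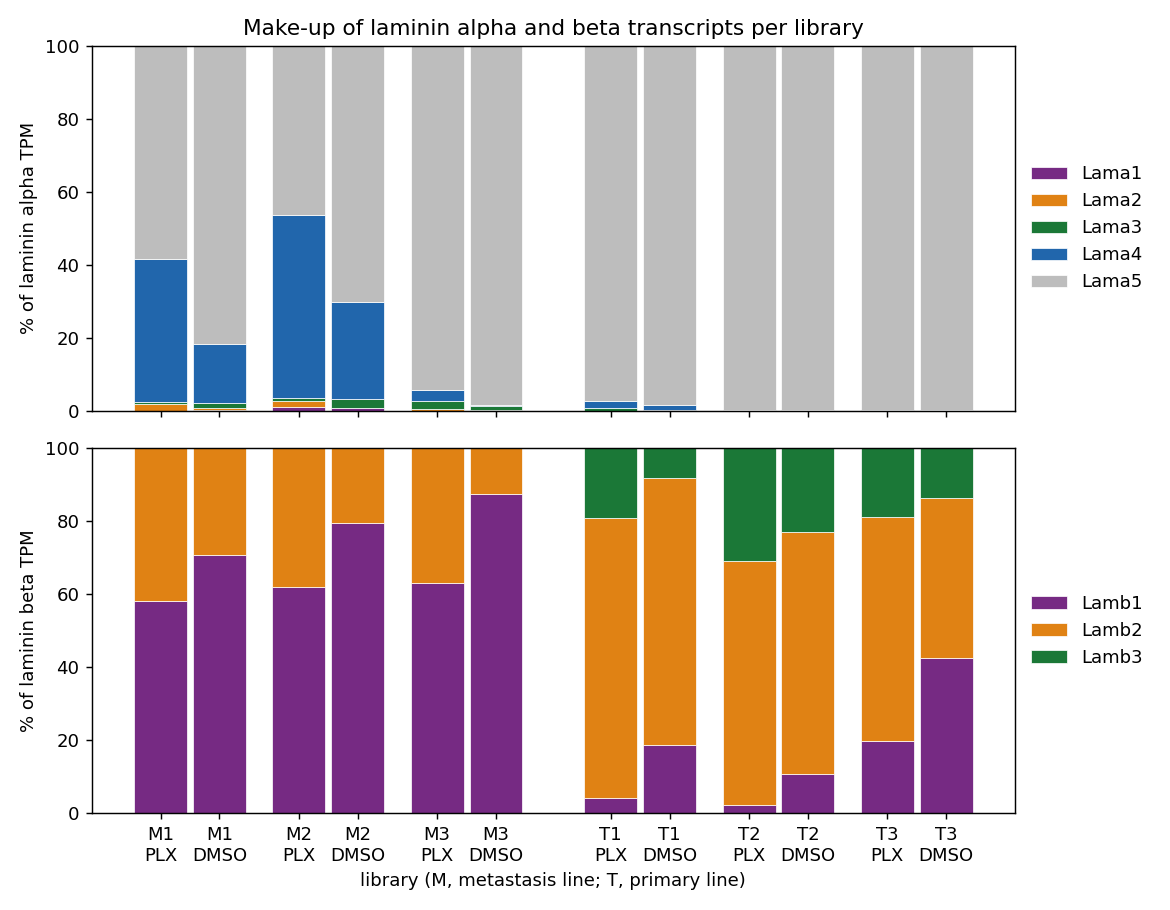
Share of each chain in the summed TPM of laminin alpha (top) and beta (bottom) genes, in percent, per library. For each line PLX4720 is left of DMSO, metastasis lines left of primary lines. Lama4 is visible mainly in M1 and M2, Lamb3 (green) only in primary lines, and the Lamb2 share is larger with PLX4720 than with DMSO in all 6 lines.

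The laminin beta chains Lamb2 and Lamb1 moved in opposite directions with PLX4720. Lamb2, the beta chain of synaptic, kidney and vessel laminins, had 212, 221 and 164 CPM in M1, M2 and M3 with PLX4720, against 111, 119 and 78.2 CPM with DMSO. T1, T2 and T3 had 351, 280.1 and 346 CPM with PLX4720, against 179, 189.5 and 215 CPM with DMSO. At each site the PLX4720 and DMSO groups did not overlap. On the log2 scale Lamb2 rose by 0.85 ± 0.07 (SE, adjusted p = 0.000145 by edgeR) over 6 lines, 0.97 ± 0.10 (SE, adjusted p = 0.000316 by edgeR) in metastasis lines and 0.74 ± 0.10 (SE, adjusted p = 0.00570 by edgeR) in primary lines, the last lost without T1 (0.0634). Metastasis lines were lower than primary lines, with a log2 difference of -0.91 ± 0.21 (SE, adjusted p = 0.0400 by edgeR) with DMSO, a call lost without any 1 of the 6 lines (0.0726 to 0.103), and -0.69 ± 0.20 (SE, adjusted p = 0.0733 by edgeR) with PLX4720, which did not pass.

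Lamb1, the broadly expressed beta chain of most early laminins, fell over 6 lines. It had 481, 589 and 456 CPM in M1, M2 and M3 with PLX4720, against 439, 747 and 893 CPM with DMSO, and 31.6, 15.4 and 182 CPM in T1, T2 and T3 with PLX4720, against 74.8, 49.5 and 338 CPM with DMSO. All lines but M1 were lower with PLX4720, and every metastasis library lay above every primary one. Lamb1 had a log2 change of -0.83 ± 0.14 (SE, adjusted p = 0.00440 by edgeR) over 6 lines and -1.26 ± 0.21 (SE, adjusted p = 0.0135 by edgeR) in primary lines, the second lost without T1 or T2 (0.00242 to 0.0926), and -0.39 ± 0.20 (SE, adjusted p = 0.211 by edgeR) in metastasis lines, which did not pass. The site difference did not pass, at 2.76 ± 0.90 (SE, adjusted p = 0.0994 by edgeR) with PLX4720 and 2.17 ± 0.76 (SE, adjusted p = 0.128 by edgeR) with DMSO. The ratio of Lamb2 to Lamb1 on the TPM scale was higher with PLX4720 in 6 of 6 lines. It was 0.719 in M1, 0.612 in M2 and 0.586 in M3 with PLX4720, against 0.412, 0.259 and 0.143 with DMSO. In T1, T2 and T3 it was 18.1, 29.7 and 3.10 with PLX4720, against 3.91, 6.24 and 1.04 with DMSO. This ratio was described without a test.

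The promoters of Lamb2 and Lamb1 are printed as the counterpart pair among laminins, from the same source and window. That of Lamb2 is chr9:108479612-108479911 and that of Lamb1 is chr12:31265043-31265342, both on the plus strand of GRCm38.p6, with GC boxes in capitals.
Lamb2: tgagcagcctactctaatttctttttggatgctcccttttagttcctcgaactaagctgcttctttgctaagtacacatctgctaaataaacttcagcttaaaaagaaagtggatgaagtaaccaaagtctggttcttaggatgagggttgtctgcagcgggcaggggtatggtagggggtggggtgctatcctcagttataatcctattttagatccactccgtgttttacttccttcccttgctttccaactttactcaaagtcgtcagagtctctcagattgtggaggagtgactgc
Lamb1: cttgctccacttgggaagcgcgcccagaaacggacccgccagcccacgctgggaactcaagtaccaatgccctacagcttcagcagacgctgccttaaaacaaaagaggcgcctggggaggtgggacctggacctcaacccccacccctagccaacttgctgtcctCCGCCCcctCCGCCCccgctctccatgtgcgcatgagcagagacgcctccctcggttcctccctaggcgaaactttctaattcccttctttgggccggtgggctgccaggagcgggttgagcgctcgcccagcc
Lamb1 held 2 GC boxes, both as CCGCCC, and Lamb2 held none. The AP-1, ETS and TEAD letters above matched neither stretch. Of the 34 genes 20 had an entry in the promoter table.

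Lamb3, the beta chain of the anchoring laminin of epithelia, was counted almost only in primary lines. M1, M2 and M3 had 0.137, 0.0909 and 0.116 CPM with PLX4720, against 94.8, 141 and 115 CPM in T1, T2 and T3. With DMSO they had 0.0596, 0 and 0.145 CPM in metastasis lines, against 21.5, 70.7 and 71.8 CPM in primary lines. Summed, this was 12 against 13118 fragments with PLX4720 and 7 against 6311 with DMSO. The log2 differences were -9.92 ± 0.33 (SE, adjusted p = 0.000130 by edgeR) and -9.56 ± 1.00 (SE, adjusted p = 0.00314 by edgeR), and both calls held whichever line was left out. In primary lines Lamb3 rose with PLX4720 by 1.26 ± 0.25 (SE, adjusted p = 0.0240 by edgeR), higher in 3 of 3 lines, a call lost without T1 or T2 (0.0121 to 0.101). In metastasis lines the fragments were too few for a change to be read.

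Of the gamma chains, Lamc1, a part of nearly all laminins, passed in no comparison. Lamc1 averaged 397 ± 80.9 CPM in metastasis lines with PLX4720 and 352 ± 131 with DMSO, and 343 ± 143 and 290.1 ± 81.8 CPM in primary lines (SD, n = 3 lines). Lamc3 stayed at or under 0.427 CPM in every library.

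Genes that act with these chains were read from 3 lists. Of 25 integrin adaptors and their actin links, 14 rose and 1 fell with PLX4720 over 6 lines, with a median log2 change of 0.44. Over all genes tested, 14.5% rose and 12.7% fell, and the median was 0.03. On the log2 scale vinculin (Vcl), which binds talin and actin, rose by 0.87 ± 0.08 (SE, adjusted p = 0.000212 by edgeR), and the actin crosslinker Actn1 by 0.78 ± 0.08 (SE, adjusted p = 0.000397 by edgeR). Lims1, a partner of integrin-linked kinase, rose by 0.49 ± 0.07 (SE, adjusted p = 0.00179 by edgeR) and its relative Lims2 by 2.87 ± 0.37 (SE, adjusted p = 0.00108 by edgeR). Lims2 was low, at a mean of 2.63 CPM in metastasis lines with PLX4720, against 0.0588 CPM, or 6 fragments, with DMSO. Primary lines averaged 1.79 CPM with PLX4720 and 1.48 with DMSO, and T2 was lower with PLX4720. In metastasis lines 12 of the 25 rose and 1 fell, where 12% of all genes rose and 8.36% fell. In primary lines 4 rose and 0 fell, where 4.46% of all genes rose and 3.77% fell. The change with PLX4720 was called more positive in metastasis lines for 4 of the 25, Lims1, Lims2, Vcl and Tln1, which encodes talin. It was called more negative for 0. Of all genes, 1.85% and 1.09% were called in these directions. Of the kindlin genes, Fermt1, the kindlin of epithelia, was at 0.0291 to 0.164 CPM in metastasis lines, against 112 to 161 CPM in primary lines, with PLX4720. Its log2 difference was -10.49 ± 0.55 (SE, adjusted p = 0.000355 by edgeR). Fermt2, the broadly expressed kindlin, was higher in metastasis lines by 1.61 ± 0.40 (SE, adjusted p = 0.0437 by edgeR) with PLX4720, while its difference of 1.38 ± 0.35 (SE, adjusted p = 0.0526 by edgeR) with DMSO did not pass. Fermt3, the kindlin of blood cells, passed in no comparison.

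Of 13 basement membrane components and laminin partners, 5 rose and 0 fell with PLX4720 over 6 lines (14.5% and 12.7% of all genes). The 5 included Ntn4, a laminin-related netrin, at 1.13 ± 0.11 (SE, adjusted p = 0.000343 by edgeR), the laminin-binding proteoglycan Agrn at 0.56 ± 0.06 (SE, adjusted p = 0.000512 by edgeR), the proteoglycan Hspg2 (perlecan) at 0.82 ± 0.11 (SE, adjusted p = 0.00127 by edgeR) and Nid2, which links laminin to collagen, at 1.36 ± 0.24 (SE, adjusted p = 0.00472 by edgeR). Between sites Bcam, a surface receptor for Lama5-containing laminins, was lower in metastasis lines, at 0.0291 to 0.212 CPM with PLX4720 and 0 to 0.149 with DMSO, against 47.8 to 93.1 and 23.9 to 47.5 CPM in primary lines. Its log2 differences were -8.75 ± 0.72 (SE, adjusted p = 0.00142 by edgeR) and -8.87 ± 0.91 (SE, adjusted p = 0.00297 by edgeR). Of 9 tested integrin ligands other than laminins, 4 rose and 1 fell over 6 lines (14.5% and 12.7% of all genes). Thbs1 (thrombospondin) rose by 1.69 ± 0.09 (SE, adjusted p = 2.73e-05 by edgeR), Icam1, a ligand of leukocyte integrins, by 3.03 ± 0.29 (SE, adjusted p = 0.000294 by edgeR) and Fn1 (fibronectin), the ligand of Itga5, by 0.87 ± 0.09 (SE, adjusted p = 0.000459 by edgeR), while Spp1 (osteopontin) fell, with -1.52 ± 0.18 (SE, adjusted p = 0.000759 by edgeR). Icam1 was low in metastasis lines, at 0.0606 to 4.80 CPM with PLX4720 and 0 to 0.203 with DMSO, against 3.08 to 22.4 and 1.05 to 9.37 CPM in primary lines. The lists are described by counts only, beside the shares of all genes. No call of a gene from these 3 lists was checked with a line left out.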

How the data were processed

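RNA was measured in 12 libraries of 6 cell lines. Per the labels' protocols, a stranded total RNA kit that depletes ribosomal RNA was used. Per the file headers, the authors ran featureCounts 1.5.2 on exons of Ensembl 84 (GRCm38), for pairs with both ends mapped and without a strand option, and deposited the raw count per gene. The alignment tool was not given in the sources used here. Without strand, exons shared with a gene on the other strand cannot be told apart, which concerns at most 8.04% of the length of any integrin or laminin gene tested.

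From these counts, R 4.3.3 and edgeR 4.0.16 (TMM, filterByExpr, quasi-likelihood test, Benjamini-Hochberg over all genes tested, threshold 0.05) gave the tests. PLX4720 was fitted on all 12 libraries and 16555 genes, with the cell line as block and a treatment term per site (4 residual degrees of freedom). The effect over 6 lines is the mean of the site terms and the site difference their contrast. Sites were compared within each treatment without a block. SE is the absolute log2 change over the root of F and is approximate for genes with few fragments. CPM is TMM-scaled, TPM uses the tables' exon lengths, and per-line changes were taken on log2(CPM + 1). Intervals of ratios are exact and cover counting error only. The block comes from the lines named in the labels: deviations of both libraries of a line from their group means correlated at 0.839 to 0.923. Same numbers across sites do not pair lines (-0.0982 to 0.0120). Libraries of a group differed by more than counting noise (chi-square per degree of freedom at least 124). The fits were tested on simulated data without line effects, with changes put only into genes of higher counts. That test does not cover the spread between lines or genes with few fragments.

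The genes and lists were chosen with earlier results of these data known. Values and statistics are printed for genes that pass in at least 1 of 6 comparisons and average at least 1 CPM in at least 1 group, and the rest by counts and ranges. Itgb1, given with its tests, and Lamc1, given by its means, were added after their values were seen. One gene of the set enters the counts and is not reported here. Up to 4 genes of a partner list with the smallest p in a comparison are named. Alternatives were RLE size factors, DESeq2 1.42.0, no filter, other blocks, sites fitted alone and each line left out.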

Additional observations from a re-analysis of the deposited data

Results flagged for a closer look

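For 5 integrin genes the change with PLX4720 differed between metastasis and primary lines by the test of the difference itself. The metastasis minus primary difference in log2 change was 4.54 ± 0.61 (SE, adjusted p = 0.00909 by edgeR) for Itga11, 1.78 ± 0.38 (SE, adjusted p = 0.0441 by edgeR) for Itga1, 0.89 ± 0.16 (SE, adjusted p = 0.0229 by edgeR) for Itga5, 0.78 ± 0.14 (SE, adjusted p = 0.0226 by edgeR) for Itgb5 and -1.37 ± 0.26 (SE, adjusted p = 0.0303 by edgeR) for Itga7. Each call was lost without at least 1 line: Itga11 without T3, Itga5 without T1, T3 or M2, Itga1 without T1, T2, T3 or M2, and Itgb5 and Itga7 without any line but M1. For each of the 5 genes the changes of the 3 metastasis lines lay wholly on one side of those of the 3 primary lines, as did those of 11 of the 27 genes and of 23.3% of all genes. The changes of Itga11 in log2(CPM + 1) were 2.52, 3.64, 3.45 in M1, M2 and M3, against 0.17, 0.01, 0.34 in T1, T2 and T3. At under 1 CPM, the added 1 draws the changes of the primary lines towards 0. T1, T2 and T3 had 6, 6 and 29 fragments with PLX4720, against 1, 6 and 16 with DMSO. The edgeR log2 change of Itga11 in primary lines was 0.88 ± 0.45 (SE, adjusted p = 0.253 by edgeR). The changes of Itga7 in log2(CPM + 1) were -0.44, -1.14, -1.01 in metastasis lines, against 0.51, 0.26, 0.25 in primary lines. The summed markers of fibroblast and stellate cells were higher and those of hepatocytes and epithelia lower in the metastasis lines, and their part in these differences was not tested.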

How the results depend on the processing

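Of the 58 gene results that passed, 30 passed whichever line was left out, and 2 more, both of Lama2, passed without each line but M1, without which the gene was not tested. None changed direction under any alternative. All 58 passed with RLE size factors, 57 with DESeq2 (Itgb2 in metastasis lines did not) and 55 with no filter. Without the replicate block, 0 genes passed in each PLX4720 comparison in edgeR, with 6 (6 lines), 3 (primary), 7 (metastasis) and 2 (site difference) at an unadjusted p under 0.05. Of all 16555 genes, 18, 1, 15 and 0 passed in these comparisons without the block. This fit ignores that both libraries come from 1 line. With one line left out, the count ran from 11 to 16 over 6 lines, 12 to 15 in metastasis lines, 0 to 10 in primary lines, 0 to 8 for the site difference, 6 to 9 between sites with PLX4720 and 3 to 7 with DMSO. The counts of all genes moved too, in the same order 2417 to 4384, 1891 to 3090, 91 to 2252, 122 to 798, 1097 to 1712 and 901 to 1595. With every line in they were 4496, 3378, 1362, 487, 2061 and 1819. The 0 for the site difference came without T3, with 12 at an unadjusted p under 0.05. With no filter the site difference counted 9 genes of the set and 996 of all 31262. DESeq2 counted 16 between sites with PLX4720, and 3163 of all 15276 genes. With replicate numbers as a block, which do not pair the lines, the site counts were 8 with PLX4720 and 7 with DMSO. Those of all genes were 1398 and 1106. The cause was not tested. Levels on plain totals stayed within 1 SD for all 108 group means. Depth limits what can be said of Itga9, Itgad, Itgal, Itgam, Itgax and of Itga8, Itga11 and Lamb3 at the site where they had few fragments.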
